A study of Mus musculus with 36 samples.

Results

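Soleus and tibialis anterior (TA) muscles of wild-type (WT) mice were compared in 18 of the 36 RNA-seq libraries of the series, 9 from each muscle, taken by the genotype and muscle that their labels give. All 18 came from male C57BL/6 mice of 3 months with no engineered allele. The other 18 libraries came from the same muscles of male C57BL/6 mice of 3 months that carry the germline ∆Ig3-MuSK allele, a deletion of the immunoglobulin-like domain of MuSK that binds BMPs. The comparison asks how the transcripts of a slow-rich muscle differ from those of a fast one. Each library holds RNA of a whole muscle, with vessels, nerve, tendon and fat beside the fibers, so fewer cells of a type and less RNA per cell cannot be told apart. The labels name the NEBNext Ultra kit for every soleus library and the NEBNext Ultra II kit for every TA library, and each muscle has its own count table, so muscle, kit and table cannot be told apart in any value below.

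Mouse limb muscle is built of fibers that are classed by the myosin heavy chain they carry. Type I fibers carry the slow chain of Myh7, contract slowly and run on oxidative metabolism. Type IIa (Myh2), IIx (Myh1) and IIb (Myh4) fibers are fast, and of these IIb relies most on glycolysis. The soleus, a postural calf muscle, is known for its type I and IIa fibers. The TA, which lifts the foot, is known for IIb and IIx fibers.

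Reads counted on genes summed to 43492062 to 50051435 in the soleus libraries and to 49287472 to 75091437 in the TA libraries, so depth moved with muscle (exact permutation test over 48620 assignments, 2-sided, p = 8.23e-05). Levels are given as CPM (the count divided by the TMM-scaled library size, with the 18 libraries scaled together), and differences as log2 fold changes, soleus minus TA, with their standard error (SE). The share of counts on the 13 mitochondrially encoded mRNAs averaged 13.2% in the soleus and 14.4% in the TA (p = 0.114 by the same exact test). Leaving out TA replicate 9 took that p to 0.0253. Gm42418, CT010467.1 and AY036118, genes known for collecting ribosomal RNA reads, held 1.92 to 5.80% of the counts in the soleus and 1.10 to 2.39% in the TA. On the first principal component, which held 70.0% of the variance, the muscles parted, and no pair of libraries of one muscle was alike within counting error.

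Of 19437 genes tested, 5840 (30.0%) were called higher in the soleus and 5371 (27.6%) higher in the TA at an adjusted p under 0.05 and at least a 1.2-fold difference. At a difference of at least 2-fold, called the 2-fold rule below, 1614 genes (8.30%) were higher in the soleus and 1159 (5.96%) in the TA. All 9 soleus libraries lay above all 9 TA libraries for 15.1% of the genes tested, and all 9 TA libraries above all 9 soleus libraries for 14.6%. The counts of gene lists below are to be read against these shares of all genes. The median log2 fold change of all genes tested was 0.015, and the median size, without sign, was 0.37. With library size as the only scaling the median moved up by 0.18, and the share of 1.2-fold calls that were higher in the soleus went from 52.1% to 70.7%. At 1.2-fold, libraries thinned to equal depth gave 5721 genes higher in the soleus and 5269 higher in the TA. Leaving out the ribosomal RNA genes, a choice made after the data were seen, gave 5976 and 5261, and leaving out the mitochondrially encoded genes gave 5818 and 5409.

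The 6 marker genes of slow and fast fibers set the 2 muscles apart in all 18 libraries, each in the direction of its label. Myh7 (chromosome 14, 54970684 to 54994626, minus strand of GRCm38) lay at 6528 to 10410.4 CPM (median 8303) in the soleus and at 2.02 to 21.2 CPM (median 3.498) in the TA. Tnni1, slow skeletal troponin I, lay at 707 to 1169 CPM (median 955) in the soleus and at 1.12 to 5.04 CPM (median 2.22) in the TA. Atp2a2, the calcium pump SERCA2 of slow fibers and heart, lay at 3993 to 6598 CPM (median 5434) against 19.9 to 42.4 CPM (median 29.9). For these 3 genes the lowest soleus library stood far above the highest TA library. Myh4 (chromosome 11, 67238029 to 67260446, plus strand) lay at 154 to 6100.1 CPM (median 1293) in the soleus and at 12138 to 26006 CPM (median 18794) in the TA. Pvalb, parvalbumin, which buffers calcium in fast fibers, lay at 93.7 to 874 CPM (median 234) in the soleus and at 6557 to 10928 CPM (median 7623) in the TA. Tnni2, fast skeletal troponin I, lay at 2046 to 3759.7 CPM (median 2529) in the soleus and at 4724 to 7975 CPM (median 5659) in the TA. All 3 fast markers were below the TA range in every soleus library, Myh4 and Pvalb by a wide margin and Tnni2 by a smaller one.

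**Figure D1:**
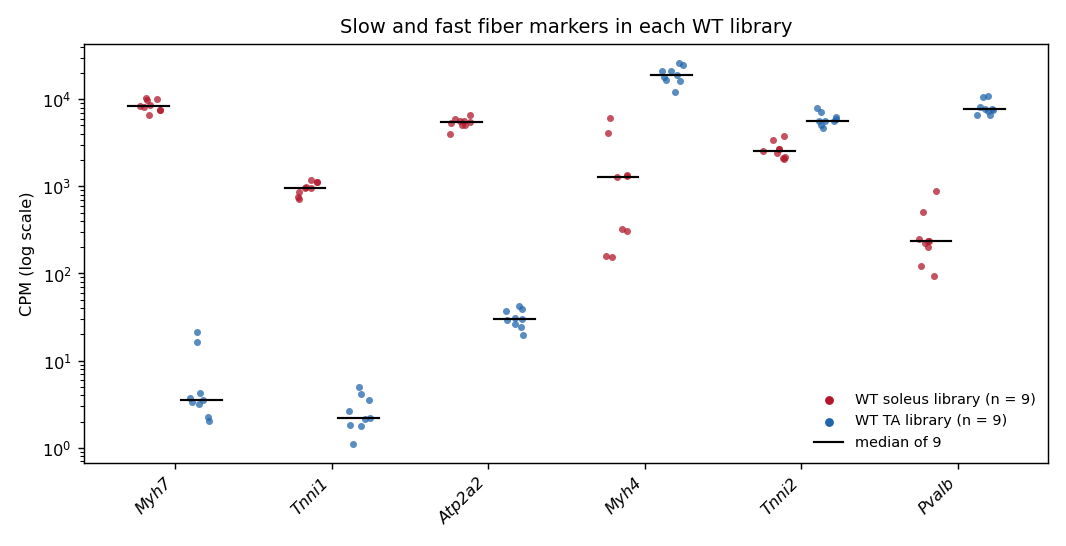
CPM, on a log scale, of 3 slow markers (Myh7, Tnni1, Atp2a2) and 3 fast markers (Myh4, Tnni2, Pvalb) in each of the 9 WT soleus (red) and 9 WT TA (blue) libraries, with a bar at each median. No marker overlaps between the muscles, and Myh4 has the widest spread within the soleus, from 154 to 6100.1 CPM.

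Contractile genes held most of the largest differences toward the soleus. All 10 slow sarcomere genes tested were higher in the soleus by the 2-fold rule, with a median log2 fold change of 7.65, and none of them overlapped between muscles. The log2 fold change was 10.33 (SE 0.55, adjusted p = 8.17e-13) for Myh7 and 8.46 (SE 0.27, adjusted p = 1.35e-16) for Tnni1. Myl2, the slow and cardiac regulatory light chain, lay at 1648 to 2354 CPM (median 2110.5) in the soleus and 1.32 to 8.995 CPM (median 2.69) in the TA, for a log2 fold change of 9.10 (SE 0.38, adjusted p = 1.1e-14). Tnnc1 and Tnnt1, the calcium-binding and tropomyosin-binding subunits of slow troponin, differed by 8.99 and 8.90 on the log2 scale (SEs 0.28 and 0.24). Tpm3, slow tropomyosin, had one of the smallest p-values of all genes, with 2221 to 3055 CPM (median 2470.0) in the soleus, 18.8 to 28.2 CPM (median 21.6) in the TA and a log2 fold change of 6.84 (SE 0.11, adjusted p = 2.78e-21). The retrocopy Tpm3-rs7, which shares sequence with Tpm3, went with it at 5.62, and reads of the pair may not be separable.

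Of 12 fast sarcomere genes, 10 were higher in the TA by the 2-fold rule and none in the soleus, with a median log2 fold change of −2.12. Actn3, the Z-disc actinin of fast fibers, differed most, at 39.5 to 1159 CPM (median 216) in the soleus and 4842 to 6908 CPM (median 5969) in the TA, for a log2 fold change of −4.17 (SE 0.47, adjusted p = 8.63e-08). Myh4 differed by −3.53 (SE 0.61, adjusted p = 3.12e-05), and Mybpc2, fast myosin-binding protein C, by −3.42 (SE 0.38, adjusted p = 7.83e-08). Tnni2 differed by −1.18 (SE 0.13, adjusted p = 4.3e-08), smaller in size than its slow counterpart Tnni1. Myoz1, a fast-fiber binder of actinin and calcineurin, differed by −2.46 (SE 0.18, adjusted p = 1.59e-10). Myh1 was not called, with 2757 to 7008 CPM (median 4222) in the soleus, 2842 to 6835 CPM (median 4545) in the TA and a log2 fold change of −0.077 (SE 0.19, adjusted p = 0.74), and its libraries overlapped widely. The 12 fast genes thus spanned −4.17 to −0.077 on the log2 scale, and the 10 slow genes 1.39 to 10.33.

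The bases just before the start of 4 contractile genes are given to show slow and fast members side by side: Tnnc1 and Tnnc2 are paralogs, slow and fast troponin C, with log2 fold changes of 8.99 and −1.12, Tnnt1 is slow troponin T, and Myh4 is the IIb myosin. Each line holds the 250 bases upstream of the single start that RefSeq lists for the gene on GRCm38.p6, 5′ to 3′ on the gene's own strand. Capitals mark E-boxes (CANNTG, the site bound by MyoD-type factors) and M-CAT elements (CATTCC or its reverse complement GGAATG, the site bound by TEAD factors). The regions are chr14:31208062-31208311, plus strand for Tnnc1, chr7:4515976-4516225, minus strand for Tnnt1, chr2:164779735-164779984, minus strand for Tnnc2 and chr11:67237562-67237811, plus strand for Myh4, whose RefSeq start lies upstream of the GENCODE start given above.
Tnnc1: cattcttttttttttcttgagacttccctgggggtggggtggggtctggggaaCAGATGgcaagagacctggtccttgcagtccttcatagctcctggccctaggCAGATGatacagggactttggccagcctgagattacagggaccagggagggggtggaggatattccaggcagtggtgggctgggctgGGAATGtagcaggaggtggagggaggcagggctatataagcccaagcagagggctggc
Tnnt1: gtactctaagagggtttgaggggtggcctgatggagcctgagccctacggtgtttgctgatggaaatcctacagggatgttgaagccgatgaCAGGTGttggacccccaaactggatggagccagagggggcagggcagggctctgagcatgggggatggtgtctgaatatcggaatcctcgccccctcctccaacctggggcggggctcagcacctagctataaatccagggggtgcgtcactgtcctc
Tnnc2: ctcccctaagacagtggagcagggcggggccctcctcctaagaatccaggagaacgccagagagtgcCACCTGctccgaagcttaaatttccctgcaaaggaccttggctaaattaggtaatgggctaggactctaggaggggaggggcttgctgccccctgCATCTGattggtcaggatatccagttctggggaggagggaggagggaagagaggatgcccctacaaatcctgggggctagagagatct
Myh4: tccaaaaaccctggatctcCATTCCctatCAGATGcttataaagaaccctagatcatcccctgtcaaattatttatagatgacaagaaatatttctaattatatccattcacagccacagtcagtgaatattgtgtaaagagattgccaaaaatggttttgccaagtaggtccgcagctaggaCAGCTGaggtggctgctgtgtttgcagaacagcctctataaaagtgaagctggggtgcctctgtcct

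RefSeq promoters were matched for 10 of 10 slow and 7 of 12 fast sarcomere genes, and the first listed start of each gene was read on both strands. An E-box stood in 10 of the 10 slow and 6 of the 7 fast promoters, and in 66.0% of the 27025 promoters of all genes. An M-CAT element stood in 3 slow and 5 fast promoters and in 12.6% of all. The CACC box CCACCC stood in 7 slow and 2 fast promoters and in 27.7% of all. A match to the MEF2 consensus stood in 0 slow and 2 fast promoters and in 3.01% of all. Matches of different motifs could share bases. These counts describe letters in a short window and were not tested.

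Genes that overlap or resemble the leading ones moved with them. Gm29015 and Mhrt are antisense to Myh7, and their log2 fold changes were 10.47 and 9.70. Gm43361 overlaps Atp2a2 on the opposite strand and differed by 7.90. The libraries carry no strand information, so reads of such pairs cannot be told apart where the exons overlap. Myh6, the alpha myosin heavy chain that lies beside Myh7 and is nearly identical to it in sequence, lay at 564 to 844 CPM (median 676) in the soleus and 1.92 to 5.67 CPM (median 3.35) in the TA, and this value is uncertain for that reason. Together with Myh7, Myl2, Tnnc1, Tnnt1, Tnni1 and Atp2a2, these are the 10 genes with the largest log2 fold changes toward the soleus among genes at 10 CPM or more in all 9 soleus libraries.

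Myosin heavy chains were compared with each other per kb of exon, as shares of the summed CPM per kb of Myh7, Myh2, Myh1 and Myh4. In the soleus, Myh2 made up 26.8 to 44.3% (median 39.8%) and Myh7 20.7 to 43.5% (median 30.8%). Myh1 made up 14.7 to 32.5% (median 22%) and Myh4 0.91 to 27.7% (median 6.82%). By this measure Myh2 had the largest share in 6 of the 9 soleus libraries, Myh7 in replicates 7 and 8 and Myh4 in replicate 1. Exon length counts every annotated exon of a gene, 8616 bases for Myh7, 7137 for Myh2, 6353 for Myh1 and 6016 for Myh4. The order of the chains depends on these lengths, and by CPM alone Myh4 was below Myh2 in every soleus library. In the TA, Myh4 made up 73.3 to 86.2% (median 78.4%) and Myh1 12.2 to 24.2% (median 19%). Myh2 stayed at 1.65 to 2.58% in the TA, and Myh7 was at or under 0.0503%. By level, Myh2 was at 6994 to 10142 CPM (median 8258) in the soleus and 423 to 732 CPM (median 569) in the TA, for a log2 fold change of 3.85 (SE 0.12, adjusted p = 1.1e-16). Of the 9 chains tested, 4 were higher in the soleus and 1 in the TA by the 2-fold rule. Myh7b, a slow chain beside Myh7 in kind, differed by 4.09, Myh3 and Myh8, the embryonic and perinatal chains, by 0.70 and −0.36, and Myh15 was below the filter with 146 counts over the 9 soleus and 36 over the 9 TA libraries. The call of Myh8 (adjusted p = 0.0305) was lost in 10 alternative fits, 7 of them without a single library: soleus replicate 3, 6, 7 or 8 or TA replicate 6, 7 or 9 (adjusted p = 0.053 to 0.0629).

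**Figure D2:**
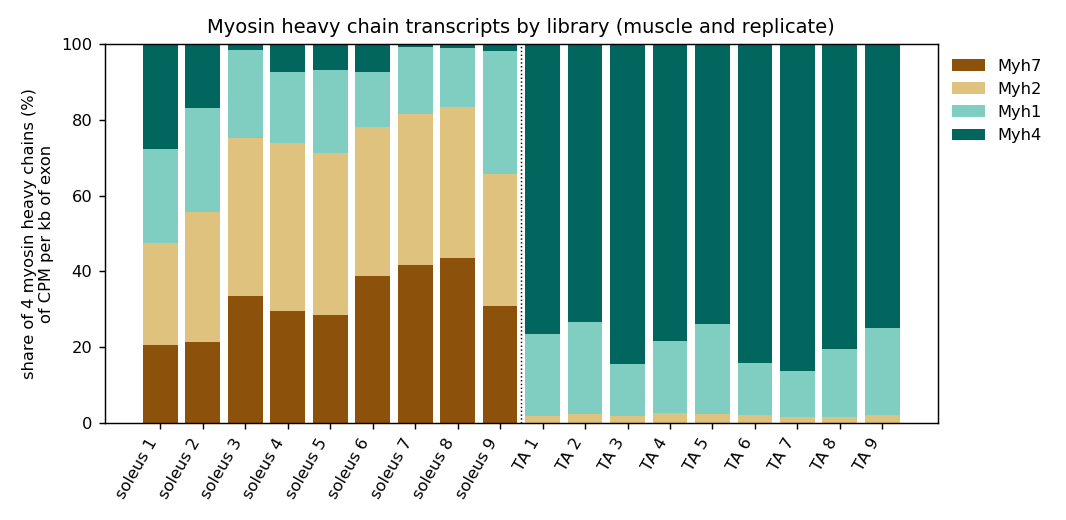
Share (%) of Myh7, Myh2, Myh1 and Myh4 in their summed CPM per kb of exon, for each of the 18 WT libraries by muscle and replicate. Myh4 fills 73.3 to 86.2% of every TA bar and 0.91 to 27.7% of the soleus bars, where replicates 1 and 2 hold the most.

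The soleus libraries differed widely among themselves in a few fast-fiber transcripts. Myh4 was at 6100.1 CPM in soleus replicate 1 and 4064 in replicate 2, at 1293 to 1365 in replicates 4, 5 and 6, at 305 and 323 in replicates 3 and 9, and at 154 and 158 in replicates 7 and 8. Actn3, Pvalb and Mybpc2 kept nearly this order, with Spearman's rho to Myh4 over the 9 soleus libraries of 0.90, 0.88 and 0.83. Mstn, higher in the TA, had a rho of 0.82. Myh7 and Tnnc1 ran the other way (rho −0.90 and −0.92), while Myh2 (0.32) and Musk (0.00) followed neither. The rest of the slow list also ran the other way, but for a myosin-binding protein gene at 0.83. These correlations describe 9 libraries that share their scaling and carry no test. The highest soleus library exceeded the lowest 39.6-fold for Myh4, 29.4-fold for Actn3, 15.6-fold for Mybpc2 and 9.32-fold for Pvalb. For the rest of the fast list it did so only 1.66-fold (Myl1) to 2.83-fold (Myoz1). Slow genes ranged from 1.16-fold (Myl3) to 2.79-fold (Myl6b), with Myh7 at 1.59-fold. Without soleus replicates 1 and 2 the log2 fold change was −4.79 for Myh4, −5.07 for Actn3, −4.16 for Mybpc2 and −5.39 for Pvalb, all larger in size than with them. With limma-voom and sample weights, Myh4 was at −4.75 and Actn3 at −4.92, and with DESeq2 Actn3 was at −3.47.

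The TA libraries had a smaller spread in some slow transcripts. Myh7 was at 16.3 and 21.2 CPM in TA replicates 4 and 6 and at or below 4.27 in the other 7, and Myl2, Tnnc1 and Tnni1 also had their highest 2 values in those replicates. Without them the log2 fold change of Myh7 was 11.40, that of Myl2 9.75, that of Gm29015 11.89 and that of Mhrt 10.58. Over all 9 TA libraries the order was looser, with Spearman's rho to Myh7 of 0.35 for Myl2 and 0.317 for Tnnc1 and Tnni1. For the rest of the slow list rho was −0.183 to 0.517. TA replicate 5 stood apart in another set, with Csrp3 at 43.4 CPM against at most 15.5 in the others. Neither spread made the muscles overlap in any gene of the slow list.

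**Figure D3:**
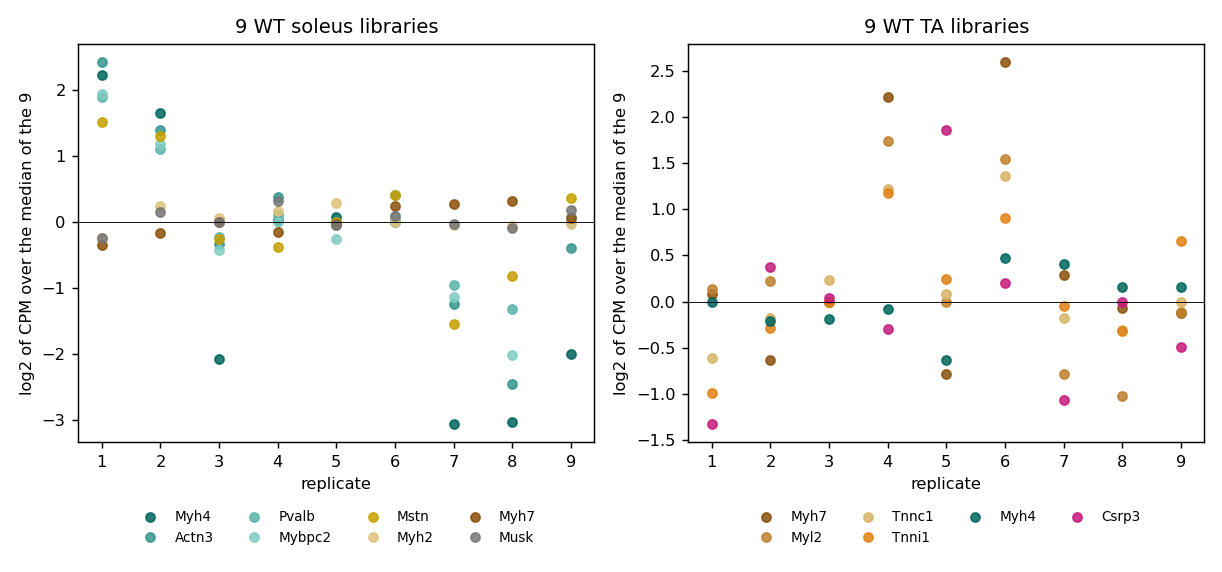
Log2 of CPM over the median of the 9 libraries of a muscle, by replicate, for fast and slow genes in the WT soleus (left) and the WT TA (right). Soleus replicates 1 and 2 are high and 7 and 8 low in Myh4, Actn3, Pvalb and Mybpc2, while Myh2 and Musk stay near 0, and TA replicates 4 and 6 are high in Myh7, Myl2, Tnnc1 and Tnni1.

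Calcium handling genes split by isoform. Of 26 tested, 5 were higher in the soleus and 7 in the TA by the 2-fold rule, with a median of −0.34. The slow pump Atp2a2 differed by 7.45 (SE 0.17, adjusted p = 5.66e-19), and the fast pump Atp2a1 by −1.16 (SE 0.12, adjusted p = 2.21e-08), with Atp2a1 still at 6214 to 10328 CPM (median 7513) in the soleus. Sln and Pln, the small membrane proteins sarcolipin and phospholamban that restrain the pump, were both higher in the soleus. Sln lay at 29.2 to 56.7 CPM (median 48.99) in the soleus and 0.7997 to 1.89 CPM (median 1.17) in the TA, and Pln at 4.497 to 11.2 CPM (median 8.04) and 1.400 to 2.58 CPM (median 1.91). Mrln, myoregulin, another restrainer of the pump, went the other way at −2.10 (SE 0.16, adjusted p = 1.54e-10). Casq2 and Casq1, the cardiac-slow and fast calsequestrins that store calcium, differed by 2.83 and −1.41. Pvalb differed by −4.74 (SE 0.36, adjusted p = 2.4e-10), and Cacng1, a subunit of the voltage sensor, by −1.58 (SE 0.12, adjusted p = 1.35e-10). Ryr1, the calcium release channel, was within the 1.2-fold limit, at 0.14 (SE 0.17, adjusted p = 0.489).

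In the Z-disc and stretch-sensing list, 10 of 21 genes were higher in the soleus and 3 in the TA by the 2-fold rule, with a median of 0.96. Myoz2, the slow-fiber relative of Myoz1, lay at 619 to 761 CPM (median 702) in the soleus and 12.5 to 38.7 CPM (median 17.8) in the TA. Csrp3, muscle LIM protein, and Ankrd2, both known to respond to stretch, differed by 4.60 (SE 0.36, adjusted p = 3.12e-10) and 4.28 (SE 0.25, adjusted p = 3.29e-12). Fhl2, another LIM protein, differed by 4.57. On the TA side stood Actn3, Myoz1 and Myoz3, the last at −1.82. Csrp3, Ankrd2 and Myoz2 all had their highest TA value in TA replicate 5, and it did not reach the soleus range for any of them.

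Membrane excitability genes also split, with 4 of 17 higher in the soleus and 5 in the TA by the 2-fold rule. Kcnc4, a fast-gating potassium channel, lay at 4.86 to 21.7 CPM (median 9.63) in the soleus and 126 to 191 CPM (median 173) in the TA, and its relative Kcnc1 differed by −1.56. Clcn1, the chloride channel that sets resting conductance, differed by −1.20 (SE 0.10, adjusted p = 1.25e-09). Beta subunits of the sodium pump split too: Atp1b1 was higher in the soleus at 1.36, and Atp1b2 was higher in the TA at −2.90. Kcnma1, a calcium-activated potassium channel, differed by 2.29, and Kcnj2, the inward rectifier, by 0.56.

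Glycolysis and glycogen genes were higher in the TA for 15 of 27 tested and higher in the soleus for 3 by the 2-fold rule, with a median of −1.17. Slc16a3, the lactate exporter MCT4, lay at 18.9 to 62.4 CPM (median 24.2) in the soleus and 285 to 410.3 CPM (median 318) in the TA. Gpd1, of the glycerol phosphate shuttle, and Phkg1 and Phka1, subunits of phosphorylase kinase, differed by −3.24, −2.72 and −2.27. Pygm, muscle glycogen phosphorylase, differed by −1.32 (SE 0.11, adjusted p = 1.57e-09). The subunits of lactate dehydrogenase went opposite ways: Ldha was below the TA range in every soleus library, with a log2 fold change of −1.84 (SE 0.13, adjusted p = 6.33e-11). Ldhb lay at 644 to 787 CPM (median 707) in the soleus and 55.2 to 89.8 CPM (median 63.5) in the TA, for a log2 fold change of 3.40 (SE 0.093, adjusted p = 1.79e-17). The other 2 genes higher in the soleus were Slc16a1, the lactate importer MCT1, at 1.12, and Hk1, a hexokinase, at 1.03.

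The phosphocreatine and adenylate list had 4 of 9 genes higher in the TA and 0 in the soleus by the 2-fold rule. Ckm, cytosolic muscle creatine kinase, lay at 5531 to 9151 CPM (median 5835) in the soleus and 15020.0 to 20455 CPM (median 18077) in the TA, for a log2 fold change of −1.45 (SE 0.11, adjusted p = 3.37e-10). Ampd1, AMP deaminase, Ak1, adenylate kinase, and Gamt, of creatine synthesis, differed by −1.51, −1.11 and −1.49. Ckmt2, mitochondrial creatine kinase, was not called, at 0.25 (SE 0.12, adjusted p = 0.0649), and it passed an adjusted p of 0.05 in 7 of the alternative fits.

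Fat use had the most uniform direction of the metabolic lists at 1.2-fold. Of 31 genes for fatty acid uptake and oxidation, 29 were higher in the soleus at 1.2-fold, 1 was higher in the TA and 12 were higher in the soleus by the 2-fold rule, with a median of 0.93. Lpl, lipoprotein lipase, lay at 1849 to 2467 CPM (median 2153) in the soleus and 222 to 319 CPM (median 281) in the TA, for a log2 fold change of 2.94 (SE 0.079, adjusted p = 1.3e-17). Fabp3, the fatty acid carrier of slow fibers and heart, and Cd36, the uptake receptor, differed by 2.14 (SE 0.17, adjusted p = 5.28e-10) and 1.51 (SE 0.093, adjusted p = 8.21e-12). Plin5, which ties lipid droplets to mitochondria, differed by 1.77. Pdk4, which holds back pyruvate oxidation, differed by 1.61, with ranges that overlapped. The gene higher in the TA was Ucp3, an uncoupling protein, at −0.52 (SE 0.17, adjusted p = 0.00996), which passed neither with library size as the only scaling (adjusted p = 0.0802) nor without TA replicates 4 and 6 (adjusted p = 0.0563).

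The citrate cycle and respiratory lists held calls in both directions. Of 20 citrate cycle genes, 7 were higher in the soleus and 5 in the TA at 1.2-fold, and 2 were higher in the soleus by the 2-fold rule. Those were Idh2, the NADP-dependent isocitrate dehydrogenase of mitochondria, at 1133 to 1411 CPM (median 1225) in the soleus and 92.7 to 167 CPM (median 137) in the TA, and Mdh1, cytosolic malate dehydrogenase, at 1.04. Cs, citrate synthase, was at 0.23 (SE 0.058, adjusted p = 0.00183), within the 1.2-fold limit. Of 32 nuclear genes of the respiratory chain, 2 were higher in the soleus and 9 in the TA at 1.2-fold, 0 passed the 2-fold rule, and the median was −0.10. With library size as the only scaling these counts were 11 and 3 and the median was 0.083, so the list has no direction that holds under both. Without TA replicate 5 they were 6 and 5, and in the ∆Ig3-MuSK libraries 12 and 1. With that same scaling the WT citrate cycle counts went from 7 and 5 to 12 and 1. Cox7a1, the heart and muscle subunit of complex IV, was at −0.41 (SE 0.10, adjusted p = 0.00147). Of the 13 mitochondrially encoded mRNAs, 2 were higher in the soleus and 6 in the TA at 1.2-fold. mt-Nd3 was the one past the 2-fold rule, at −1.31, and mt-Co1 was at −0.088 (SE 0.12, adjusted p = 0.519). Nuclear copies of mitochondrial sequence such as Gm28437 and Gm10925 had counts close to their mitochondrial counterparts, so reads of these genes may be shared.

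Nnt, the mitochondrial transhydrogenase that makes NADPH, was among the 5 genes with the smallest p toward the soleus. It lay at 149.5 to 206 CPM (median 179.6) in the soleus and 12.4 to 16.5 CPM (median 13.9) in the TA, for a log2 fold change of 3.68 (SE 0.076, adjusted p = 2.01e-19). A second identifier, ENSMUSG00000113525, had near-equal levels in every library and a log2 fold change of 3.69, so reads of Nnt may have been counted for both. The fifth gene of that set, Lgi1, known as a secreted synaptic protein, lay at 21.4 to 32.1 CPM (median 25.6) in the soleus and 0.303 to 0.629 CPM (median 0.472) in the TA.

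**Figure D4:**
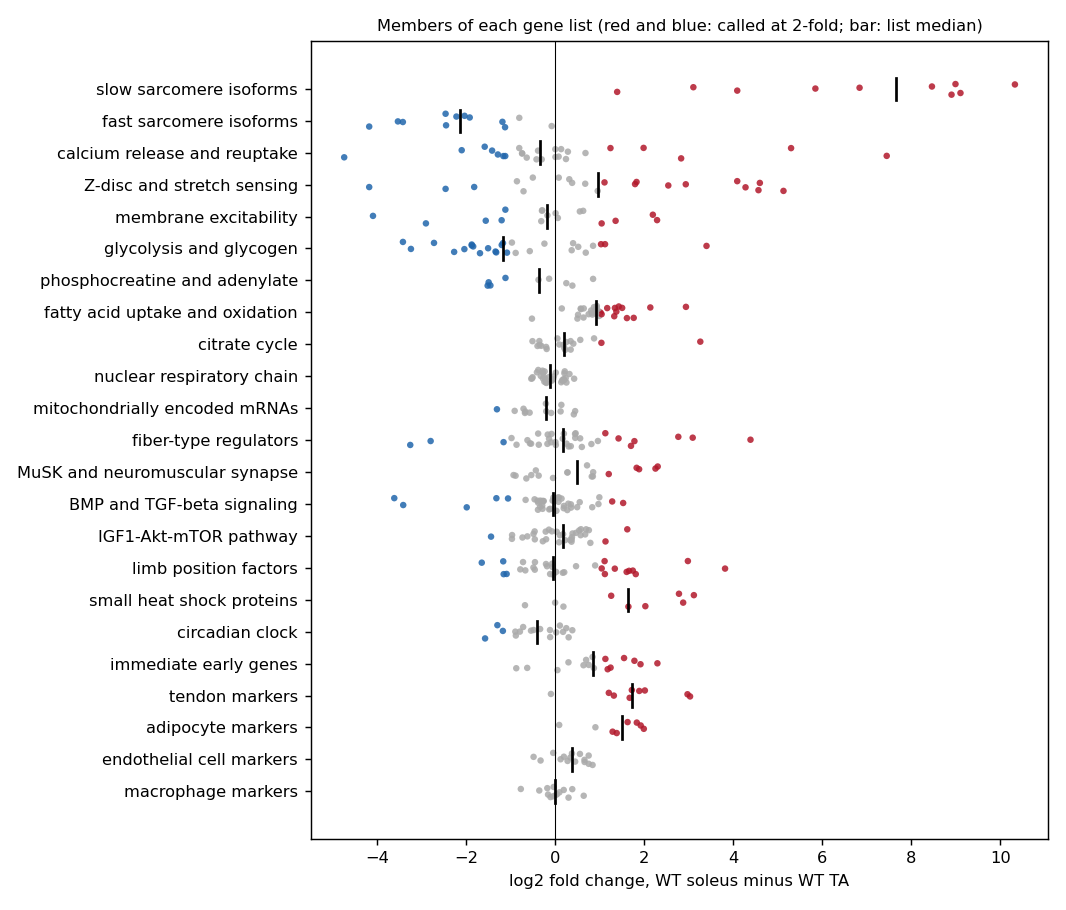
Log2 fold change (WT soleus minus WT TA) of each tested member of 23 gene lists, with members called by the 2-fold rule in red (higher in soleus) or blue (higher in TA), other members in grey and a bar at each list's median. The slow list has the highest median (7.65) and the fast list the lowest (−2.12), while the nuclear respiratory chain lies around 0.

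Transcription factors and signals known to set fiber type differed in both directions. Of 36 genes on this list, 7 were higher in the soleus and 3 in the TA by the 2-fold rule, and 16 and 9 at 1.2-fold, with a median of 0.18. The list also holds Mb, myoglobin, which is neither a transcription factor nor a signal. Of all genes tested, 8.30% and 5.96% passed the 2-fold rule and 30.0% and 27.6% the 1.2-fold limit (soleus, TA). Prox1, a homeobox factor of slow fibers, lay at 17.1 to 29.8 CPM (median 22.8) in the soleus and 0.629 to 1.78 CPM (median 1.12) in the TA, for a log2 fold change of 4.39 (SE 0.16, adjusted p = 9.08e-16). Esrrb and Esrrg, nuclear receptors that drive oxidative genes, differed by 3.09 (SE 0.10, adjusted p = 2.83e-16) and 2.77 (SE 0.10, adjusted p = 2.74e-15). Their relative Esrra was within the 1.2-fold limit, at −0.092 (SE 0.053, adjusted p = 0.132). Rcan1, a target and brake of calcineurin, differed by 1.78, and Mb by 1.13. Tead1, which binds M-CAT elements, differed by 0.82.

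On the TA side the large Maf factors, known for switching on Myh4, led the regulators. Maf lay at 17.5 to 51.96 CPM (median 23.4) in the soleus and 187 to 296 CPM (median 257) in the TA, for a log2 fold change of −3.25 (SE 0.17, adjusted p = 3.83e-13), and Mafa differed by −2.79 (SE 0.13, adjusted p = 1.16e-13). Sox6, a repressor of slow genes, and Tbx15, a factor of glycolytic fibers, differed by −1.16 and −0.98. Maf had its highest soleus value, 51.96 CPM, in soleus replicate 1, the library with the most Myh4.

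Genes of satellite cells and the myogenic factors also went both ways. Of 14, 2 were higher in the soleus and 2 in the TA by the 2-fold rule. Myod1, the factor known to be higher in fast muscle, was at 4.58 to 10.2 CPM (median 8.85) in the soleus and 15.1 to 26.3 CPM (median 20.4) in the TA, for a log2 fold change of −1.27 (SE 0.12, adjusted p = 1.07e-08). Myog, known to be higher in slow muscle, was at 0.74 (SE 0.16, adjusted p = 0.000452), with ranges that overlapped. Pax7, the satellite cell factor, and Megf10 differed by 1.01 and 1.25. Pax3 was nearly absent from the soleus, with 5 counts over the 9 libraries and 0 in 5 of them, against 27 to 123 counts per library in the TA.

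Of 18 synapse genes tested, 5 were higher in the soleus and 0 in the TA by the 2-fold rule, and 11 and 6 at 1.2-fold, with a median of 0.50. Musk, the receptor kinase that organizes the neuromuscular junction, lay at 12.5 to 18.5 CPM (median 14.8) in the soleus and 2.92 to 5.61 CPM (median 3.84) in the TA (chromosome 4, 58285960 to 58374303, plus strand). All 9 soleus libraries were above all 9 TA libraries, by 3.56-fold in the fit, a log2 fold change of 1.83 (SE 0.11, adjusted p = 6.25e-12). Lrp4, its partner in binding agrin, differed by 0.82 (SE 0.12, adjusted p = 6.04e-06). Colq, the collagen tail that anchors acetylcholinesterase, differed by 2.30 (SE 0.10, adjusted p = 4.16e-14). Chrna1 and Chrnd, subunits of the acetylcholine receptor, differed by 2.25 and 1.89, and Chrne, the adult subunit, went the other way at −0.93 (SE 0.11, adjusted p = 2.05e-07). Chrng, the fetal subunit, and Nrg1 were below the filter.

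Of 40 BMP and TGF-beta genes tested, 2 were higher in the soleus and 5 in the TA by the 2-fold rule, and 10 and 16 at 1.2-fold. With library size as the only scaling the latter counts were 13 and 7. In the main fit the shares of all genes tested were 8.30% and 5.96% by the 2-fold rule and 30.0% and 27.6% at 1.2-fold (soleus, TA). Mstn, myostatin, which restrains muscle growth, lay at 0.381 to 3.205 CPM (median 1.12) in the soleus and 12.9 to 22.2 CPM (median 16.7) in the TA, for a log2 fold change of −3.61 (SE 0.27, adjusted p = 1.91e-10). Its close relative Gdf11 differed by −1.98 (SE 0.10, adjusted p = 3.68e-13). Smad9, a transducer of BMP signals, differed by −1.32. Higher in the soleus were Bmpr1b, a BMP receptor, at 1.53 (SE 0.11, adjusted p = 1.43e-10), and Inhba, the activin A subunit, at 1.28. Id1, a BMP target, and Car3, carbonic anhydrase III, were not called, at 0.077 (SE 0.23, adjusted p = 0.782) and −0.26 (SE 0.14, adjusted p = 0.109). Car3 passed in 4 alternative fits, among them that without soleus replicate 1 (−0.34, adjusted p = 0.0165). Car3 was high in both muscles, at 988 to 2171 CPM (median 1376) in the soleus and 1298 to 2314 CPM (median 1606) in the TA. Grem1 was below the filter.

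The IGF1-Akt-mTOR list had 2 of 33 genes higher in the soleus and 1 in the TA by the 2-fold rule, with a median of 0.18. The same rule took 8.30% and 5.96% of all genes tested. Irs2, the adaptor between the insulin and IGF1 receptors and Akt, lay at 19.7 to 89.4 CPM (median 31.03) in the soleus and 8.73 to 24.9 CPM (median 18.1) in the TA, for a log2 fold change of 1.13 (SE 0.26, adjusted p = 0.00068). Its ranges overlapped, and soleus replicate 6 was the highest. Igfbp2, an IGF-binding protein of low level here, differed by 1.62, and Deptor, an inhibitor bound to mTOR, by −1.44 (SE 0.094, adjusted p = 1.79e-11). Akt2 differed by −0.46, and Igf1 was not called, at 0.11 (SE 0.19, adjusted p = 0.634), though limma-voom put it at 0.39 (adjusted p = 0.0169). In the atrophy and FoxO list 2 of 15 genes passed the 2-fold rule, both higher in the soleus: Bnip3, a mitophagy receptor, at 1.39 and Gabarapl1, of autophagosomes, at 1.29. Of the muscle ubiquitin ligases, Trim63 was at −0.51 (SE 0.10, adjusted p = 0.000231) and Fbxo32 at −0.12 (SE 0.12, adjusted p = 0.414).

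Positional factors of the limb also differed between the muscles. Of 31 tested of 39 listed, 10 were higher in the soleus and 4 in the TA by the 2-fold rule, with a median of −0.04. En1, a homeobox factor of the ventral limb, lay at 9.56 to 12.1 CPM (median 11.04) in the soleus and 0.456 to 1.08 CPM (median 0.738) in the TA, for a log2 fold change of 3.82 (SE 0.11, adjusted p = 3.88e-17). Emx2, Tbx3 and Hoxd9, factors of limb patterning, differed by 2.98, 1.81 and 1.75. Tbx4, the hindlimb T-box factor, differed by 1.11 (SE 0.12, adjusted p = 3.69e-08), and its hindlimb partner Pitx1 was not called, at 0.21 (SE 0.24, adjusted p = 0.454). Higher in the TA were Tbx1 at −1.65 (SE 0.065, adjusted p = 5.13e-15), Hoxa11 at −1.15, Osr2 at −1.09 and Lmx1b, the factor of the dorsal limb, at −1.16 (SE 0.31, adjusted p = 0.00245). Lmx1b was at 0.177 to 0.431 CPM (median 0.331) in the TA, so its values rest on low counts. Members below the filter included Hoxc12, Hoxd10, Hoxd11, Hoxd12, Hoxd13, Tbx5 and Msx2. Hoxd10 and Hoxd11 had 158 and 119 counts over the soleus libraries and 34 and 10 over the TA libraries.

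Of 9 heat shock genes, 6 were higher in the soleus by the 2-fold rule and 0 in the TA. Hspb7, a heart and muscle chaperone, lay at 1254 to 1935 CPM (median 1706) in the soleus and 96.7 to 426 CPM (median 160.1) in the TA, and Cryab, alpha B-crystallin, at 940.0 to 1247 CPM (median 1126) and 200.1 to 419.8 CPM (median 262). The inducible pair Hspa1a and Hspa1b, which are near-identical in sequence, differed by 2.88 and 2.78, and Hspb1 by 1.26. Immediate early genes were higher in the soleus for 7 of 16 and in the TA for 0 by the 2-fold rule, with Atf3 at 2.30 (SE 0.27, adjusted p = 1.49e-07), Fos at 1.55 (SE 0.41, adjusted p = 0.00212), Egr1 at 1.78 and Egr3 at 1.92. Fos, Egr1 and Egr3 overlapped between the muscles, and their standard errors were among the larger ones here. Of 18 clock genes, 3 were higher in the TA by the 2-fold rule: Bhlhe41 at −1.57, Per3 at −1.30 and Tef at −1.17. The core clock gene Arntl (Bmal1) differed by 0.39 (SE 0.10, adjusted p = 0.00119) and the output gene Dbp by −0.48 (SE 0.16, adjusted p = 0.0129).

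The 11 common reference genes had a median of 0.077 and no member past the 2-fold rule. At 1.2-fold, 5 were higher in the soleus and 2 in the TA, against 30.0% and 27.6% of all genes tested. The largest log2 fold change toward the soleus was 0.66. Ppia, Tbp and Hprt were at −0.49 (SE 0.10, adjusted p = 0.000185), −0.27 (SE 0.07, adjusted p = 0.00191) and 0.31 (SE 0.081, adjusted p = 0.00197).

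Markers of other cell types moved with muscle for some types. Of 9 tendon genes, 8 were higher in the soleus by the 2-fold rule, and their summed level was 314 to 832 CPM in the soleus and 145 to 250.02 in the TA. Tnmd and Scx, which define tendon cells, differed by 1.67 (SE 0.18, adjusted p = 4.85e-08) and 1.32 (SE 0.16, adjusted p = 2.78e-07), and the cartilage and tendon matrix genes Comp and Chad by 3.03 and 2.97. Cilp2 and Mkx followed at 2.02 and 1.89. Of 8 adipocyte genes tested, 6 were higher in the soleus by the 2-fold rule, with a summed level of 229.9 to 570.1 CPM against 181 to 306. All 8 overlapped between the muscles. Adipoq, adiponectin, lay at 4.497 to 29.3 CPM (median 6.49) in the soleus and 1.22 to 5.92 CPM (median 3.57) in the TA, and Plin1, Pck1, Cidec and Lep differed by 1.99, 1.92, 1.63 and 1.83, with soleus replicate 1 highest for all 5. Lep had an adjusted p of 0.0131, and without soleus replicate 1 its log2 fold change was 0.73 with an adjusted p of 0.131. Ucp1, which defines brown adipocytes, had 1 count over the 9 soleus and 4 over the 9 TA libraries.

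Fewer markers of the other cell types passed. No endothelial gene of 15 passed the 2-fold rule, 10 were higher in the soleus and 2 in the TA at 1.2-fold, and the summed level was 809 to 1000.2 CPM against 731 to 907. Pecam1 and Cdh5 differed by 0.66 and 0.34. Of 8 smooth muscle and pericyte genes 0 passed the 2-fold rule and 5 were higher in the soleus and 0 in the TA at 1.2-fold, with Myh11 at 0.52. Macrophage genes gave 0 of 14 past the 2-fold rule and 2 and 1 at 1.2-fold, with Adgre1 at 0.022 (SE 0.21, adjusted p = 0.931), and a summed level of 91.9 to 235 against 91.5 to 182 CPM. Of 11 Schwann cell genes 3 were higher in the soleus and 0 in the TA at 1.2-fold, and 1 passed the 2-fold rule, Egr2 at 1.27. Of 10 fibroblast genes 5 were higher in the soleus and 1 in the TA at 1.2-fold, and 2 passed the 2-fold rule, Fbn1 at 1.65 and Col1a1 at 1.06, and Pdgfra differed by 0.34. Of 5 blood genes 3 were higher in the soleus and 0 in the TA at 1.2-fold, and 2 passed the 2-fold rule, Hba-a1 at 1.08 and Alas2 at 1.04, and Hbb-bs was not called, at 0.25 (SE 0.13, adjusted p = 0.0904). The part of these cells in the muscle differences of matrix, lipid and limb genes was not tested.

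Over all genes, those with the largest differences toward the TA at 10 CPM or more in all 9 TA libraries were mostly not contractile. Cyp4f39, a fatty acid hydroxylase, lay at 0.0346 to 0.602 CPM (median 0.1499) in the soleus and 12.5 to 20.6 CPM (median 15.5) in the TA, for a log2 fold change of −6.39 (SE 0.24, adjusted p = 2.06e-15) (chromosome 17, 32452723 to 32493320, plus strand). Cacna2d4, a calcium channel subunit, differed by −5.36 (SE 0.17, adjusted p = 1.75e-16). Smox, spermine oxidase, lay at 11.99 to 32.1 CPM (median 14.9) in the soleus and 276 to 409 CPM (median 328) in the TA, for a log2 fold change of −4.26. Tspan8, a tetraspanin, Pfkfb3, which makes an activator of glycolysis, and Prkag3, the AMPK subunit of glycolytic fibers, differed by −3.94, −3.91 and −3.85. Pvalb, Actn3, Kcnc4 and the pseudogene BC023105 (−4.78) complete these 10. The 5 smallest p-values toward the TA belonged to Reep1, Pla2g7, Cacng7, Cacna2d4 and Cpeb1, with log2 fold changes of −2.16, −3.34, −2.11, −5.36 and −3.13. Reep1 shapes the endoplasmic reticulum, Pla2g7 cleaves platelet-activating factor, and Cpeb1 binds mRNAs.

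The same contrast was fitted in the ∆Ig3-MuSK libraries, which the WT comparison does not use. There 5556 of 19910 genes (27.9%) were higher in the soleus and 5580 (28.0%) in the TA at 1.2-fold, and 1542 (7.74%) and 1261 (6.33%) by the 2-fold rule. Of the genes called by the 2-fold rule in WT, 77.1% of those higher in the soleus and 76.8% of those higher in the TA were called in the same direction in ∆Ig3-MuSK muscle, which was 80.7% and 70.6% of the ∆Ig3-MuSK calls. No gene was called in opposite directions. The log2 fold changes in WT and ∆Ig3-MuSK were 10.33 and 9.61 for Myh7, 7.45 and 7.15 for Atp2a2, −3.53 and −3.20 for Myh4 and −4.74 and −3.97 for Pvalb. For Musk they were 1.83 and 1.87, for Prox1 4.39 and 4.05, and for En1 3.82 and 3.96.

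Whether the muscle difference itself depended on genotype was tested over the 36 libraries. With edgeR's quasi-likelihood test, 0 of 20841 genes had an adjusted p under 0.05 for the difference (the smallest was 0.0652), while 5193 (24.9%) had an unadjusted p under 0.05 and DESeq2 called 312 of 15830 (1.97%), 283 of them (1.79%) at 1.2-fold or more. Irs2 had a log2 fold change of 1.13 in WT and −0.05 in ∆Ig3-MuSK, a difference of −1.18 (SE 0.31, adjusted p = 0.0978 in edgeR and 0.0424 in DESeq2). Bhlhe41 had −1.57 and −1.10, a difference of 0.47 (SE 0.12, adjusted p = 0.0978 in edgeR and 0.0379 in DESeq2). These were the only 2 of the 170 named genes that DESeq2 called. It gave no adjusted p for Egr2, Egr3, Igfbp2, Pitx1, Lmx1b, Smad9 and Pax3. In edgeR's test 32 of the 170 had an unadjusted p under 0.05. By that main test, after adjustment, none of the named muscle differences was shown to be particular to WT.

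**Figure D5:**
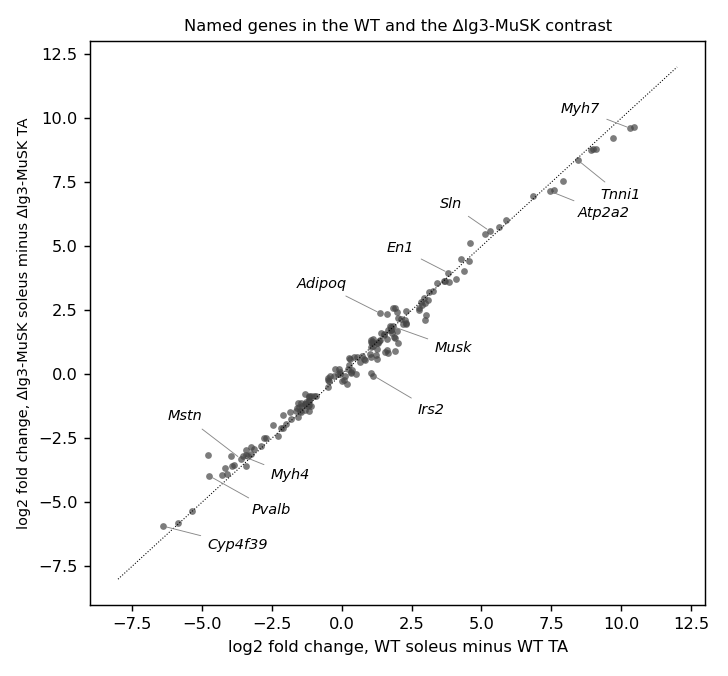
Log2 fold change, soleus minus TA, of the 170 named genes in WT (horizontal axis) and in ∆Ig3-MuSK muscle (vertical axis), which share no library, with a dotted line of equality and some genes labelled. Points such as Myh7 (10.33 and 9.61) and Cyp4f39 (−6.39 and −5.93) lie near the line, and Irs2 lies below it (1.13 and −0.05).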

How the data were processed

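RNA of whole soleus and tibialis anterior muscles was sequenced, with 1 muscle per animal as the study states. Even so, 8 animal-like numbers in the labels occur in both WT soleus and WT TA libraries, and whether these mark the same animals is not settled by the sources used here. The authors trimmed reads with Trimmomatic, aligned them to mm10 (GRCm38) with GSNAP and counted them per gene with HTSeq without strand. The deposited counts are whole, unnormalized reads per Ensembl gene, in 1 table per muscle. How multi-mapped reads were counted is not given in the sources used here. No column of another sample was found in the tables.

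The tables were joined by Ensembl ID and the 18 WT libraries were fitted together with edgeR 4.0.16 (R 4.3.3): TMM factors, the default expression filter, and the quasi-likelihood test with Benjamini-Hochberg adjustment over 19437 genes, which gives every adjusted p in the text unless another tool is named. Calls used an adjusted p under 0.05 with at least 1.2-fold, the study's limits, or at least 2-fold. The ∆Ig3-MuSK libraries and the interaction over 36 libraries were fitted likewise. At 43492062 counts or more per library, the spread between libraries (common biological coefficient of variation 0.13 in the WT soleus and 0.169 in the WT TA) exceeded counting error for genes above 10 CPM. DESeq2 1.42.0, limma-voom 3.58.1, other scalings and filters, thinning, replicate blocks and leaving out each library were tried. The scripts were tested on simulated counts in which 200 of 19306 genes differed by 1 on the log2 scale. There edgeR recovered 93% with 5.10% false calls, and DESeq2 recovered 95.5% with 13.6% false calls. Far more genes were called in the real data, so the simulation does not show how the scaling holds there.

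Members and the 31 gene lists were chosen with earlier results of these data known. Named are the core genes of each list, the up to 4 members of each list with the largest difference in each direction by the 2-fold rule, the 10 genes of the largest difference in each direction at 10 CPM or more in every library of the higher muscle, and the 5 of smallest p in each direction, 170 in all, of which some are not reported here. Of these, 54 share exon bases with another annotated gene, and unstranded reads there cannot be assigned. Tnnc2, Ryr1, Ucp3, Esrra, Myh3, Myh8 and the ribosomal and mitochondrial copies were chosen after their values were seen. Gene positions come from GENCODE on GRCm38, promoters from RefSeq on GRCm38.p6.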

Additional observations from a re-analysis of the deposited data

Results flagged for a closer look

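In 39 of 358 groups of 9 libraries (10.9%) the highest or lowest library of a named gene stood far from the others by Dixon's criterion. Chance meets it in about 1 of 20 groups where values are normally distributed. It was applied here to CPM without logs, so that rate may not hold. Genes share libraries, so the flagged groups are few independent events. Soleus replicate 1 gave 13, TA replicate 9 gave 10 and TA replicate 5 gave 7.

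Soleus replicate 1 was the highest soleus library for the adipocyte genes Adipoq (29.3 CPM), Plin1 (34.7), Cidec (21.2), Pck1 (20.9) and Lep (11.9). It was also the highest for genes that were higher in the TA: Actn3 (1160 CPM), Kcnc4 (21.7), Maf (52.0), Pfkfb3 (53.0), Cyp4f39 (0.602) and Pax3 (0.043). Atp1b1 (352 CPM) and Myh11 (31.1) stood apart there too. In soleus replicate 2, Cacna2d4 (0.822 CPM) stood apart.

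TA replicate 9 was the library standing apart for the tendon genes Comp (9.85 CPM), Cilp2 (11.7) and Mkx (1.31), for the matrix gene Col1a1 (301), and for the adipocyte genes Cidec (6.43) and Pck1 (4.43). The same held for Fos (12.4 CPM), Egr2 (1.35), Hspa1a (11.8) and Pax3 (1.65). Without this library the share of mitochondrially encoded mRNAs differed between muscles (exact permutation test, 2-sided, p = 0.0253), and with it p was 0.114.

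TA replicate 5 stood apart for stretch-responsive Csrp3 (43.4 CPM) and Ankrd2 (67.7), for Myoz2 (38.7) and Pax7 (0.858), for Mdh1 (570) and Ckmt2 (1940), and for Maf (187). Soleus replicate 7 stood apart for Adgre1 (6.66 CPM), Fbn1 (243), Gamt (4.26) and Osr2 (2.20), and soleus replicate 6 for Irs2 (89.4) and Atf3 (22.4). Hoxd9 stood apart in TA replicate 4 (1.52 CPM) and Dbp in TA replicate 7 (79.4).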

How the results depend on the processing

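Of 176 genes named, 161 kept their direction and their side of the threshold under all 34 alternatives. With library size as the only scaling 3348 genes were higher in the TA at 1.2-fold. By the 2-fold rule DESeq2 called 2578 genes higher in the soleus and 1843 in the TA, no filter on low counts gave 3059 and 2098, and in the ∆Ig3-MuSK libraries DESeq2 called 2490 and 2127. For the interaction it called 312 genes. Leaving out 1 library gave 5730 to 6068 and 5202 to 5466 calls at 1.2-fold and 1576 to 1741 and 1144 to 1212 by the 2-fold rule (soleus, TA), and differences of −1.54 to −0.81 percentage points in mitochondrial share and −20325900 to −17100400 in total counts.

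Genes that were not called changed sign in places. With library size only, Myh1 was at 0.073, mt-Co1 at 0.11, Fbxo32 at 0.066 and Esrra at 0.094 on the log2 scale. Without TA replicates 4 and 6, Adgre1 was at −0.090 and Igf1 at −0.0074. Adgre1 was at −0.0047 with DESeq2, and Id1 was at −0.015 with limma-voom and −0.032 without soleus replicates 1 and 2. Leaving out 1 library, Myh1 ranged from −0.18 to 0.0030, Id1 from −0.027 to 0.18 and Adgre1 from −0.18 to 0.11. Among called genes, Dbp, Tbp, Ucp3 and Myh8 passed no more with library size only (adjusted p = 0.143, 0.208, 0.0802 and 0.246). Without TA replicates 4 and 6 neither did Ucp3 (adjusted p = 0.0563) nor Myh8 (adjusted p = 0.0832), which also failed without each of 7 single libraries. Lep was lost with limma-voom (adjusted p = 0.174) and without soleus replicate 1 or both 1 and 2. Of genes not called, Ckmt2 passed in 7 alternatives, Car3 and Hbb-bs in 4 each and Igf1 and Esrra in 1 each, in the same direction. Esrra also passed where its sign changed (adjusted p = 0.0416). The causes were not tested.

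Libraries of the muscles with the same replicate number deviated together with correlations of −0.097 to 0.14, and 5 of 9 correlated best with their own number. By the number in the labels that recurs in both muscles, the 8 pairs had correlations of 0.037 to 0.14, and 4 of 8 were best with their own. Each soleus library was compared with all 9 TA libraries, so best matches with the own number were more frequent than random picks would give. The main fit took neither as a pairing, as not every pair passed 0.1. That limit was a choice, and these values do not settle whether the libraries are paired. With the replicate block, 5890 and 5313 genes were called at 1.2-fold and 1608 and 1155 by the 2-fold rule. Blocking by the number in the labels gave 5933, 5301, 1687 and 1168. The 2 blocks put Myh4 at −4.57 and −4.91 and Id1 at −0.028 and −0.13. With the replicate block Adgre1 was at −0.033, Ckmt2 and Hbb-bs were called (adjusted p = 0.0178 and 0.0429) and Myh8 was not (adjusted p = 0.0582). With the label number Actn3 was at −4.93, Lep at 1.22 and Car3 was called at −0.34 (adjusted p = 0.0414). No other named gene changed its call.

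Depth limits Lmx1b, Pax3 and other genes under about 1 CPM.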
